A study of Mus musculus with 61 samples.

Results

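The start sites of non-coding RNA genes were followed in mouse fibroblasts on day 3 of reprogramming to pluripotency, with and without the histone chaperone CAF-1. The members are the start sites of RefSeq transcripts with an NR_ accession, the prefix of non-coding transcripts, in a table of promoters and enhancers of mouse embryonic stem cells. The start site of Pvt1 was left out. Of 5513 distinct promoters in the table, 308 are members and 5204 belong to NM_ transcripts only, the prefix of protein-coding messenger RNAs. A start site shared by NR_ and NM_ transcripts counts as a member, so an NM_ start below is one without an NR_ transcript. By symbol, 44 members are small nucleolar RNAs (Snor), 37 are microRNAs (Mir) and 227 are others.

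The name "non-coding" holds for the first 2 classes and only in part for the last. RefSeq annotates all 44 Snor members as snoRNA and all 37 Mir members as miRNA. Of the 227 others, it annotates 118 as lncRNA, 24 as transcribed pseudogenes and 76 as protein-coding genes, for which the NR_ entry is a non-coding variant. The remaining 9 are 2 antisense RNAs, 2 guide RNAs, 1 snoRNA, the RNase P RNA, the telomerase RNA and 2 that were not found. Several members lie side by side: joined where start sites lay within 10 kb, the 308 members form 257 loci, of which 30 hold a Snor member and 22 a Mir member.

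All cells came from E13.5 embryos of strain Black6-129X1/SvJ with the genotype Col1a1::tetOP-OKSM ; R26-M2rtTA, in which doxycycline drives a cassette of Oct4, Klf4, Sox2 and Myc. Both groups were grown in serum/LIF medium with doxycycline and ascorbate, so a cell without induction is not part of any comparison here. Sono-seq reads fragments of sheared, cross-linked chromatin without an antibody, and open chromatin shears more readily. It was done on 3 libraries with CAF-1 knockdown (CAF) and 3 with a control hairpin against Renilla luciferase (RN). The labels do not say which hairpin the CAF libraries carried. The regions were defined in embryonic stem cells, whereas the cells measured were reprogramming intermediates from fibroblasts. Sox2 ChIP-seq was done on 1 immunoprecipitate and 1 input each for the Renilla hairpin and the hairpins Chaf1a.166 and Chaf1a.2122, both directed at the large subunit of CAF-1. The other 49 of 61 samples, RNA-seq among them, were not analysed here, so neither the loss of Chaf1a nor the identity of the cells was checked against marker genes.

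Small nucleolar RNAs guide the chemical modification of ribosomal and other RNAs in the nucleolus. In mammals most of them are cut out of introns, often of genes for ribosomal proteins and translation factors or of non-coding host genes such as Gas5 and the Snhg genes. MicroRNAs are cut from hairpins in longer transcripts by Drosha and Dicer, and bases 2 to 8 of the mature strand, the seed, choose the targets. The miR-290 cluster is the main microRNA cluster of mouse embryonic stem cells, and the miR-106a to miR-363 cluster is an X-linked relative of miR-17 to miR-92.

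RefSeq (GRCm38.p6) held mature sequences for 36 of the 37 Mir members. These gave 67 mature strands with 56 seeds, of which 8 seeds were shared by at least 2 members, and 16 members had a shared seed. The 2 clusters below carry the microRNA values reported further on, and selected strands are printed with the seed in capitals.
miR-291a-3p: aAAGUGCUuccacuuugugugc
miR-294-3p: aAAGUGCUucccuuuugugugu
miR-295-3p: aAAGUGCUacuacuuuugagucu
miR-290a-3p: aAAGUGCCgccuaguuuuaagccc
miR-291b-3p: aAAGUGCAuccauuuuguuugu
miR-106a-5p: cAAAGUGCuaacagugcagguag
miR-20b-5p: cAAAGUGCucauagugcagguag
miR-18b-5p: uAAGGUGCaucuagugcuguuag
miR-19b-3p: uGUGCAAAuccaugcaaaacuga
miR-92a-3p: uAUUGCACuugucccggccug
miR-363-3p: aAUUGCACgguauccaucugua
Among the strands held, the motif AAGUGC stood within the first 9 bases in 7 Mir members, namely 5 of the 7 of the miR-290 cluster and Mir106a and Mir20b on chromosome X. For Mir292 only miR-292a-5p was held, so its other strand could not be read for the motif or for a shared seed. The other X-linked pair, Mir92-2 and Mir363, shared the seed AUUGCAC with Mir367, which lies in a different cluster on chromosome 3.

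For the snoRNA genes, the sequence that can be read is that of the neighbouring start site. In 38 of 44 Snor members the table held the start site of a gene other than a Snor within 5 kb, which came to 26 genes, 14 of them for ribosomal proteins, and RefSeq held promoter sequences for 19. Transcripts of ribosomal proteins and of many snoRNA hosts are known to begin in a run of pyrimidines, the 5′ terminal oligopyrimidine tract. A run of at least 5 C or T that includes the start base was present in 6 of these 19 genes (31.6%), in 433 of 4071 other genes of the table (10.6%) and in 3191 of 27025 genes of the sequence file (11.8%). In the class of others it was present in 29 of 148 genes (19.6%), some of which are also among the 19. Of the ribosomal protein genes with a sequence, only Rpl27a had such a run. Rpl23, Rpl37, Rpl12, Rpl13a, Rps3, Rpl4 and Rpsa had no C or T at the annotated start base. The windows below run from 20 bases before to 20 bases after the RefSeq start (GRCm38.p6), with the run of C and T over the start base in capitals.
2410006H16Rik, chr11:62602857-62602897, plus strand: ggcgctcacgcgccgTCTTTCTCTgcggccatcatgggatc
Snhg12, chr4:132308658-132308698, plus strand: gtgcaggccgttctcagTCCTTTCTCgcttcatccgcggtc
Rack1, chr11:48800340-48800380, plus strand: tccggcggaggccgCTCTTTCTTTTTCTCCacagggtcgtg
Rpl27a, chr7:109519175-109519215, plus strand: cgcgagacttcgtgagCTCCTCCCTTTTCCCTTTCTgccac
Snhg1, chr19:8723467-8723507, plus strand: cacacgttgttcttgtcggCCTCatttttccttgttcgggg
Nop56, chr2:130274392-130274432, plus strand: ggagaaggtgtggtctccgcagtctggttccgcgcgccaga
The first 4 hold a run of at least 5, Snhg1 holds a shorter one, and Nop56 has none over its annotated start. A missing run says only that these letters are not at the annotated base.

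The level of the members was that of coding promoters. Each start site has 1 deposited value per condition, of unknown unit. There are 3 libraries per condition, and how they were combined is not stated, so no spread between libraries and no test can be given for any value below. The mean of the CAF and RN values had a median of 0.142 over the 308 members and 0.142 over the 5204 NM_ promoters. Snor members had a median of 0.159, Mir members 0.137 and others 0.140. Levels between start sites are compared as deposited, since no source used here states the width of the window behind a value.

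**Figure D1:**
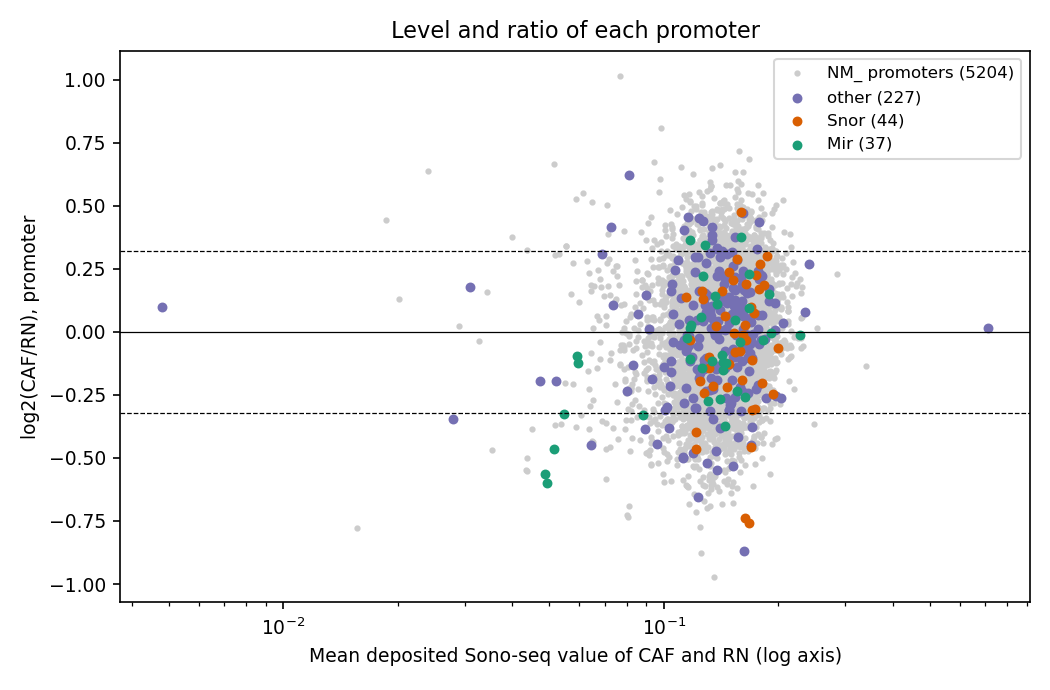
Each point is 1 promoter, with the mean of its CAF and RN Sono-seq values on the x axis (log scale, deposited unit) and log2(CAF/RN) on the y axis. NM_ promoters are grey, members are coloured by class, and dashed lines mark ratios of 0.32 above and below 0. Most members lie inside the grey cloud, whose median level is 0.142, and a green group of Mir members lies below 0.06 with ratios under 0.

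The extremes of level were members. The highest mean value of all promoters was that of G530011O06Rik, a lncRNA on chromosome X, at 0.710 in RN and 0.717 in CAF. The next members were 1700012B15Rik at 0.218 and 0.262, Tmem80 at 0.229 and 0.242, Mir23a at 0.229 and 0.228, and E130317F20Rik at 0.203 and 0.208, and the fifth of the others was Gm16516 at 0.222 and 0.185. The lowest of all was the pseudogene Gm6623 with 0.00463 in RN and 0.00495 in CAF, followed among members by Vmn2r-ps14 at 0.0313 and 0.0247 6820431F20Rik at 0.0291 and 0.0329, 2610005L07Rik at 0.0506 and 0.0442, Mir363, and Gm4349 at 0.0556 and 0.0486 among the others. The extremes were thus single loci, with pseudogenes at the low end. Start sites on chromosome X were low in both kinds of gene, with a median level of 0.0667 over 14 members and 0.0831 over 125 NM_ promoters, against 0.143 over 5079 autosomal NM_ promoters.

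As a group, the members had similar values with CAF-1 knockdown and with the control hairpin. The log2 ratio of CAF over RN had a median of -0.01 over the members, with quartiles of -0.18 and 0.14 and a range of -0.87 to 0.62. The NM_ promoters, weighted so that each of 10 level classes counted as often as among the members, had a median of -0.01. A log2 ratio of 0.32, used below as a descriptive threshold in either direction, was reached upward by 19 members (6.17%, beside 6.68% of all promoters) and downward by 30 (9.74%, beside 8.98%). Both shares lie near those of the whole table. Counted by locus, with start sites within 10 kb joined, 18 loci held a member past the threshold upward and 23 downward. Because the chromatin comes from bulk cultures, fewer cells with an open site and a less open site in every cell cannot be told apart.

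Among the classes, Snor members had a median log2 ratio of -0.03 (19 of 44 above 0), Mir members -0.09 (13 of 37) and others 0.01 (117 of 227). The level-weighted NM_ medians for the same classes were 0.00, -0.01 and -0.01. With 1 value per 1 kb locus, the medians were -0.06 over 39 Snor loci, -0.03 over 23 Mir loci and 0.01 over 217 loci of others. The Mir median was -0.03 over the 31 autosomal Mir members and -0.40 over the 6 on chromosome X. These 6 are hairpins of the same cluster, spread over 800 bp, so their median describes that locus and not the chromosome. Of the others, the 118 lncRNA start sites had a median of 0.01, the 76 of protein-coding genes -0.02 and the 24 pseudogenes 0.00.

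The lowest ratio of any member was at the Snord49 locus on chromosome 11. Its host 2410006H16Rik is a lncRNA whose start base lies in the pyrimidine run printed above. The start site of 2410006H16Rik (mm9 position 62416378) had values of 0.209 in RN and 0.115 in CAF, a log2 ratio of -0.87. Snord49b, 209 bp away, had 0.211 and 0.125, and Snord49a, 583 bp away, had 0.205 and 0.123. All 3 RN values were above the median RN value of all promoters (0.143), and all 3 CAF values were below the median CAF value (0.141). No NM_ start site lies within 45 kb, and the single enhancer assigned to the locus went the other way, with a log2 ratio of 0.29.

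**Figure D2:**
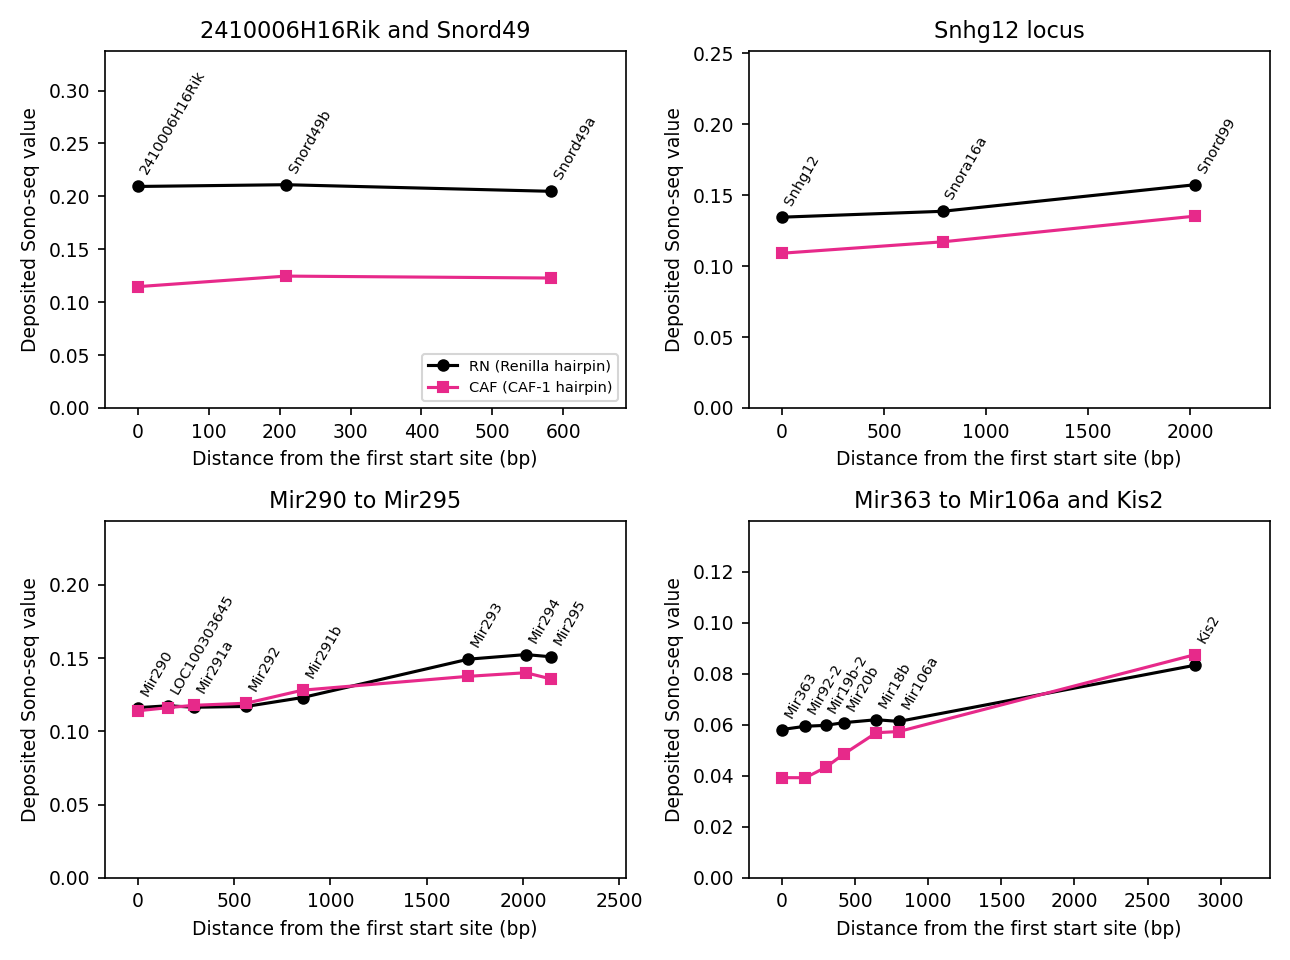
Deposited Sono-seq values (y axis) of the start sites in 4 loci, plotted by distance in bp from the first start site (x axis), with RN as black circles and CAF as magenta squares. CAF lies below RN at all 3 start sites of the Snord49 locus (0.115 to 0.125 against 0.205 to 0.211), whereas at Mir290 to Mir295 the lines cross, and on chromosome X the gap narrows from Mir363 to Mir106a.

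The Snhg12 and Rabggtb loci were also lower at each of their start sites. Snhg12, a non-coding host of several snoRNAs, had 0.135 in RN and 0.109 in CAF, with Snora16a at 0.139 and 0.117 and Snord99 at 0.157 and 0.135. Their log2 ratios were -0.30, -0.24 and -0.22. At Rabggtb, a coding gene for a subunit of a Rab prenyltransferase, 3 NR_ start sites had ratios of -0.24, -0.45 and -0.53, and Snord45b and Snord45c in it had -0.19 and -0.46. Snord2 lies beside Eif4a2, an RNA helicase of translation initiation. It had 0.141 in RN and 0.102 in CAF (log2 ratio -0.47), and the Eif4a2 start site 1474 bp away had 0.161 and 0.0992 (-0.70). Snord68, which has no NM_ start site within 37 kb, had -0.40.

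Near ribosomal protein genes the ratios went both ways. Beside Rpl3, Snord43 had -0.30 and Snord83b -0.14, with Rpl3 itself at -0.33. Beside Rpl23a, Snord4a had -0.31 and beside Rpl17, Snord58b had -0.20. Upward, Snora21 beside Rpl23 had 0.134 in RN and 0.186 in CAF, a log2 ratio of 0.48. It was the only Snor member past the threshold in that direction (2.27% of 44, beside 6.68% of all promoters). Downward, 5 Snor members at any locus were past it (11.4%, beside 8.98%). Beside Rpl13a on chromosome 7, the ratio was 0.23 at Snord34, 0.27 at Snord33 and 0.30 at Snord32a, with Rpl13a itself at 0.15. Snora7a beside Rpl32 had 0.17, Snord16a beside Rpl4 0.24 and Snord15a beside Rps3 0.10. The members beside Rpl27a (Snora3 -0.08), Rpl37 (Snord72 0.02) and Rpsa (Snora62 -0.11) had log2 ratios between -0.11 and 0.02.

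A snoRNA did not always have the ratio of the neighbouring start site. Over the 38 Snor members with another gene's start within 5 kb, 28 had the same sign as it and the median absolute difference in log2 ratio was 0.10. Snora65, 1589 bp from Rpl12, had -0.22 where Rpl12 had 0.37, the largest difference of the 38. At Nop56, which encodes a core protein of box C/D snoRNPs, Snord110 at 1103 bp had 0.29 and Snord57 at 3614 bp had -0.08, with the start site of Nop56 at 0.35. Snord22 had 0.13 and Snhg1, 2379 bp away, -0.29. Snora41 had 0.06 and Eef1b2 0.44. At Rack1, listed as Gnb2l1, the nearer Snord96a had the ratio of the gene (-0.25 and -0.24) and the farther Snord95 had 0.07. Snord47 in Gas5 had 0.20 against -0.01 at the Gas5 start. At Snhg16, listed as 1810032O08Rik, the start had -0.23, Snord1c at 845 bp -0.20, Snord1b at 2487 bp -0.03 and Snord1a at 2937 bp 0.03. Further Snor members were Snora75 (0.14) and Snord82 (-0.13) some 5 kb apart on chromosome 1, Snord104 (0.16), Snora28 beside Eif5 (-0.03), a second Snord58b entry on chromosome 14 (0.16), Snora31 beside Tpt1p (-0.01) and Snord85 (0.19).

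For microRNAs, the listed start site is the 5′ end of the hairpin and not the promoter of the long primary transcript. In all 13 neighbouring pairs of Mir members within 10 kb for which RefSeq gives both hairpins, the spacing in the table equalled the spacing of the hairpin 5′ ends to the base. A Mir value thus describes the chromatin at the hairpin.

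The hairpins of the miR-290 cluster differed little between CAF and RN. From Mir290 to Mir295 on chromosome 7, over 2147 bp, the RN values ran from 0.116 to 0.152 and the CAF values from 0.114 to 0.140. The log2 ratios were -0.03 at Mir290, 0.02 at Mir291a, 0.03 at Mir292, 0.06 at Mir291b, -0.12 at Mir293, -0.12 at Mir294 and -0.15 at Mir295. LOC100303645, the lncRNA start inside the cluster, had -0.02. The start sites at the upstream end, among them Mir291a with the seed AAGUGCU, lay near 0, and Mir294 and Mir295 with the same seed were slightly lower in CAF.

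The X-linked cluster was lower in CAF, and by a different amount at each hairpin. The RN values were nearly flat, at 0.0581 for Mir363, 0.0594 for Mir92-2, 0.0597 for Mir19b-2, 0.0608 for Mir20b, 0.0619 for Mir18b and 0.0613 for Mir106a. The CAF values in the same order were 0.0393, 0.0392, 0.0433, 0.0486, 0.0569 and 0.0573. The log2 ratios were therefore -0.57, -0.60, -0.47, -0.32, -0.12 and -0.10 over 800 bp. The first 4 passed the threshold. Kis2, a lncRNA start 2026 bp beyond Mir106a, had 0.0833 in RN and 0.0875 in CAF. In mean level all 6 hairpins lay at or below percentile 0.71 of the promoters in the table. NM_ promoters on chromosome X had a median log2 ratio of -0.07, and 19.2% of the 125 were past the threshold downward.

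Away from these clusters, microRNA hairpins differed one by one. Higher in CAF past the threshold were Mir130a (0.138 in RN and 0.180 in CAF, log2 ratio 0.38), Mir142, a microRNA of blood cells (0.102 and 0.132, 0.37), and Mir190 (0.113 and 0.143, 0.34). Lower past the threshold were Mir141 (0.163 and 0.126, -0.37) and Mir367 (0.0980 and 0.0779, -0.33). Mir141 and Mir200c, hairpins of the epithelial miR-200 family that lie 405 bp apart, had -0.37 and -0.27. Mir497 and Mir195, which share the seed AGCAGCA and lie 325 bp apart, had -0.27 and -0.09. The pair Mir181d and Mir181c, with the shared seed ACAUUCA, had 0.22 and 0.14. Mir182 and Mir96 had 0.05 and -0.03. The single hairpins were Mir677 (-0.26), Mir760 (-0.23), Mirlet7i of the let-7 family (-0.15), Mir335 in Mest (-0.11), Mir205 (-0.11), Mir688 (-0.04), Mir23a (-0.01), Mir150 (-0.01), Mir135b (0.10), Mir124a-1 of the neuronal miR-124 family (0.11), Mir210, a hypoxia-responsive microRNA (0.15), and Mir330 beside Eml2 (0.23).

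Of a list of 54 symbols, nearly all of well-known lncRNAs and structural RNAs and some of them synonyms, 13 were in the table. Their median log2 ratio was 0.10, beside -0.01 over all promoters, 8 were above 0, 2 were past the threshold upward and 0 downward, beside 6.68% and 8.98% of all promoters. Terc, the RNA template of telomerase, had 0.104 in RN and 0.143 in CAF, a log2 ratio of 0.45. Oip5os1, listed as 1700020I14Rik, had 0.116 and 0.152 (0.38). Rpph1, the RNA of RNase P, had 0.111 and 0.136 (0.30). Snhg10 had 0.18, Neat1, the scaffold of paraspeckles, 0.12, Tsix, the antisense RNA of Xist, 0.10, Nespas of the imprinted Gnas locus 0.10 and Malat1, a nuclear speckle RNA, 0.06. Below 0 were Gas5 (-0.01), Snhg3 (-0.07), Tug1 (-0.28), Snhg1 (-0.29) and Snhg12 (-0.30). Outside the list, the guide RNAs of Cajal bodies were Scarna2 (-0.30) and Scarna17 (0.12).

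Gm3219, a transcribed pseudogene, had the highest ratio of any member, with 0.0637 in RN and 0.0980 in CAF (0.62). Chkb-Cpt1b, a read-through transcript, had 0.47 where Chkb, 203 bp away, had 0.46. LOC100270707 had 0.45 where Usp27x, 94 bp away, had 0.43. At the low end, 5730408K05Rik had 0.150 in RN and 0.0954 in CAF (-0.65), and 1810009A15Rik, 132 bp away, had -0.67. The NR_ variant of 2410002O22Rik had -0.55 and that of Wnk1 -0.52, the latter 190 kb from the nearest NM_ start without an NR_ transcript. Mrpl15, with an NM_ start 22166 bp away, had 0.108 in RN and 0.146 in CAF (0.44).

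Many members lie close to a coding start site, and nearby start sites had similar values. An NM_ start lay within 5 kb of 161 of 308 members (52.3%), and another NM_ start within 5 kb of 1345 of 5204 NM_ promoters (25.8%). The median absolute difference in log2 ratio between a member and that start was 0.05, and 128 of 161 had the same sign. Over the 123 others with such a neighbour, the median distance was 216 bp and the median difference 0.03. Over 29 Snor members these were 1790 bp and 0.12, and over 9 Mir members 2409 bp and 0.15. The 5 closest pairs were Zfp91-Cntf with Zfp91, Gm10565 with Tmem51, Gm12191 with Rpl30, Zfp809 with its own NM_ start and Atp10d with its own. They lay 1 to 14 bp apart, and in the first 4 the deposited values were identical.

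The same held for any neighbouring pair of promoters in the table. The median absolute difference was 0.01 below 100 bp, 0.02 from 100 to 250 bp, 0.05 from 250 to 500 bp, 0.08 from 500 to 1000 bp, 0.12 from 1 to 2 kb and 0.23 from 2 to 5 kb. It was 0.21 between promoters taken at fixed steps across the table. Values closer than about 2 kb were thus more alike than distant ones, and members of 1 locus are not separate observations. For the 147 members with no NM_ start within 5 kb, 8.16% were past the threshold upward and 13.6% downward, beside 6.73% and 9.67% of level-weighted NM_ promoters. For the 161 members within 5 kb of one, these were 4.35% and 6.21%, beside 6.74% and 8.59%. In both comparisons the NM_ promoters were weighted on level only and were not split by distance to another start site. The 147 include the 6 X-linked hairpins and the 3 start sites of the Snord49 locus, so single loci count more than once. No test of the difference between the 147 and the 161 members was made. Of the 76 start sites of protein-coding genes among the others, 32 lay within 5 kb of an NM_ start. The 147 thus include start sites of coding genes, such as Mrpl15 and Wnk1, and are not all non-coding sites far from a coding gene.

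**Figure D3:**
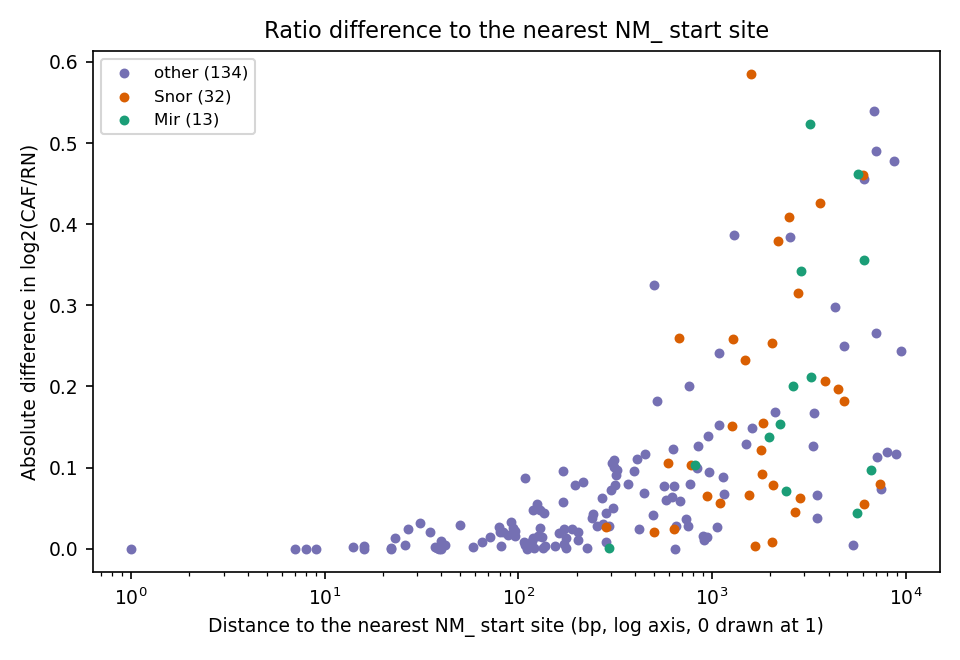
Each point is 1 member with an NM_ start site within 10 kb, with the distance to it in bp on the x axis (log scale) and the absolute difference in log2(CAF/RN) on the y axis, coloured by class. Differences are near 0 below 100 bp and spread up to 0.58 beyond 1 kb, where most Snor and Mir members lie.

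Within 10 kb, Sox2 positions lay near members about as often as near other promoters. Positions of all 3 lists within 2 kb were less frequent, at 5.19% of members beside 8.53% of all promoters. A position within 10 kb was found for 78 members in the Renilla list (25.3%, exact 95% interval 20.6 to 30.6, beside 29.1% of all promoters). The Chaf1a.166 list gave 84 (27.3%, 22.4 to 32.6, beside 28.4%) and the Chaf1a.2122 list 98 (31.8%, 26.7 to 37.3, beside 33.2%). The intervals are Clopper-Pearson intervals that cover counting error only and treat start sites of 1 locus as separate, so they are too narrow. By locus, 64, 66 and 77 of 257 had a position near a member. All 3 lists had a position near 58 members (18.8%, beside 20.8%), and no list had one near 186 (60.4%, beside 58.8%). The lists hold 17681, 15888 and 19319 positions, from 1 immunoprecipitate each, so a difference between lists has no replicate check. Read depth is unknown, so a site absent from a list may have been missed.

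**Figure D4:**
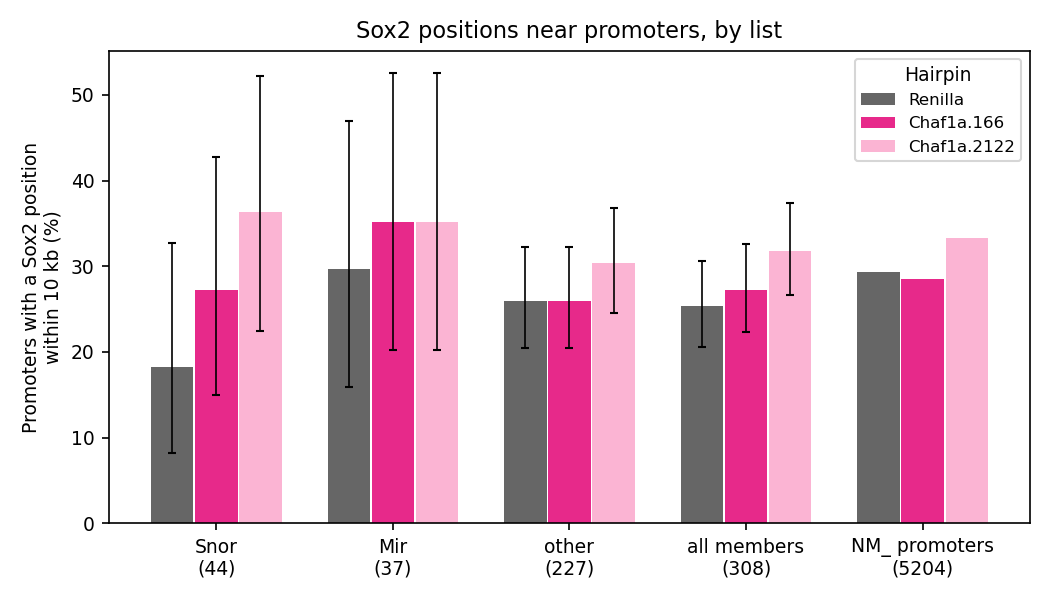
Share of promoters with a Sox2 position within 10 kb (y axis, percent) for each class of member, all members and NM_ promoters (x axis, number of promoters in brackets), with 1 bar per hairpin list. Error bars on the members are exact 95% intervals, and NM_ promoters have none drawn. The intervals of all 4 member groups include the NM_ share of the same list.

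By class, the Renilla, Chaf1a.166 and Chaf1a.2122 lists had positions near 8, 12 and 16 of 44 Snor members, 11, 13 and 13 of 37 Mir members and 59, 59 and 69 of 227 others. The 9 Mir members with positions in all 3 lists fall in 3 of 22 loci. One of these is the miR-290 cluster, where 7 hairpins share the same positions, 4916 bp from Mir290 in the Renilla list and 7063 bp from Mir295. Mir760 had positions 422, 396 and 2087 bp away, and Mir135b had them at 2963, 2972 and 2949 bp. The X-linked cluster had no position within 171 kb in any list.

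Within 2 kb, 16 members had positions in all 3 lists (5.19%, beside 8.53% of all promoters). At Malat1 on chromosome 19 the positions lay 6, 2 and 8 bp from the start site. Their enrichments over input were 11.1, 18.6 and 9.22 as the authors' caller gave them, beside list medians of 8.23, 8.37 and 7.46. By score they ranked 10191 of 17681 in the Renilla list, 11584 of 15888 in the Chaf1a.166 list and 8413 of 19319 in the Chaf1a.2122 list. The promoter of Malat1 from RefSeq (GRCm38.p6, chr19:5802623-5802922, minus strand, 250 bases before to 50 after the start) is printed with the 17 bases around the start, 8 on each side, in capitals.
Malat1: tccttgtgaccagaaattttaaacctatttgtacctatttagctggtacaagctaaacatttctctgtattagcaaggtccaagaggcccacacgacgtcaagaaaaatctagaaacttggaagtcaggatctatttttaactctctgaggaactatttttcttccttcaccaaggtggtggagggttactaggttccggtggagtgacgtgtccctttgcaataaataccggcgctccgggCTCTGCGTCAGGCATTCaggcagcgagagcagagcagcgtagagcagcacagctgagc
This window holds none of the Sox core motifs CATTGT and CTTTGT on either strand. A core motif was found in 35 of 148 other-class genes with a promoter sequence (23.6%), in 939 of 4071 genes of the table not beside a Snor member (23.1%) and in 8572 of 27025 genes of the sequence file (31.7%).

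Neat1, the neighbour of Malat1, had positions 111, 176 and 123 bp from its start. Snhg12, Snora16a and Snord99 shared 1 position per list, 648, 623 and 618 bp from Snora16a, at a locus where Sono-seq was lower in CAF. Snord47 in Gas5 had positions at 1711, 1748 and 1713 bp. The highest score among the 16 was at Gm15698, ranked 545 of the Renilla list and 1712 bp from the start. The others were Gm4532, 4632427E13Rik, 2410137F16Rik, Gm10818, 1110020A21Rik and 5031434O11Rik, annotated as lncRNA, and NR_ variants of Enoph1, Wnk1 and Plscr3. Their log2 ratios ran from -0.52 at Wnk1 to 0.31 at 5031434O11Rik. Members with a position in at least 1 list had a median log2 ratio of -0.01 and those with none -0.01.

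Within 10 kb, 2 of 44 Snor members had a Sox2 position in the Renilla list only (4.55%, beside 3.34% of NM_ promoters). The Chaf1a.166 list alone had one near 2 (4.55%, beside 3.04%), and the Chaf1a.2122 list alone near 6 (13.6%, beside 5.92%). Both Chaf1a lists without Renilla had one near 4 (9.09%, beside 2.92%). No Snor member had one in Renilla and only 1 Chaf1a list (beside 1.58% and 3.52%). Start sites of 1 locus can share a position, so these are not separate observations. Snora7a had one in the Renilla list, 839 bp away and ranked 9153 of 17681, and the nearest in the other lists were 26114 and 26208 bp away. Snord43 beside Rpl3 had one in the Chaf1a.166 list at 601 bp, ranked 9478 of 15888, and one in the Chaf1a.2122 list at 706 bp, ranked 18504 of 19319. The nearest Renilla position lay 61156 bp away. Snora31 had one in the Chaf1a.166 list at 2763 bp, ranked 10447, and one in the Chaf1a.2122 list at 3133 bp, ranked 10981. Its nearest Renilla position lay 15930 bp away. Snord4a had a Chaf1a.166 position at 1962 bp (rank 13555) and a Chaf1a.2122 position at 6836 bp (rank 16804). Snora41 had only a Chaf1a.2122 position, at 2286 bp (rank 15161). Several further cases rest on positions near the end of a list. Among them are the Chaf1a.2122 position near Snord34, Snord33 and Snord32a (rank 18147), the Chaf1a.166 position near Snord49a (rank 15686) and the Renilla position near Snord15a (rank 16592). Since the lists differ in length and lowest score, and each rests on 1 library, a position so far down 1 list says nothing about the others.

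The enhancers assigned to members numbered 936 of 14265, and 675 of them were also assigned to an NM_ transcript. Their log2 ratio had a median of 0.02, beside 0.03 for enhancers of NM_ transcripts alone and 0.02 for those weighted to the same levels. Past the threshold upward were 95 (10.1%, beside 10.3% of all enhancers), and downward 57 (6.09%, beside 6.58%). The 92 enhancers of Snor members had a median of 0.07, the 78 of Mir members 0.05 and the 782 of others 0.02. The X-linked hairpins have 2 enhancers between them, with log2 ratios of -0.25 and 0.16. The hairpins of the miR-290 cluster have 5, with 0.43, 0.02, -0.23, -0.23 and -0.06.

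The proteins that make and use these RNAs were read from a list of 41 gene symbols, some of them synonyms. The table held 21 start sites for these symbols, with Ddx17 among them more than once. Their median log2 ratio was -0.06, beside -0.01 over all promoters, with 8 above 0, 3 past the threshold upward and 3 downward, beside 6.68% and 8.98% of all promoters. Upward were Fbl, the methyltransferase of box C/D snoRNPs (0.130 in RN and 0.175 in CAF, 0.43), Tnrc6c, a partner of Argonaute (0.38), and Nop56 (0.35). Downward were Nhp2, a core protein of box H/ACA snoRNPs (0.161 and 0.105, -0.61), Nufip1, a snoRNP assembly factor (-0.40), and Tnrc6b (-0.36). Dicer1, which cuts microRNA precursors, had -0.17, Xpo5, which exports them, -0.17, and Lin28a, which blocks let-7 processing, -0.24. Sox2 positions of all 3 lists lay within 10 kb of 6 of the 21, and of 5 of the 13 lncRNAs of the earlier list, beside 20.8% of all promoters.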

How the data were processed

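Sono-seq (6 libraries) and Sox2 ChIP-seq (3 immunoprecipitates, 3 inputs) of day 3 were used. The submitters' processing notes name mm9, BWA 0.7.8 and Bowtie, with no role for either aligner. The Sono-seq table holds a score of unstated unit and scaling, 1 per region and condition, deposited by the authors, with 3 libraries each and their merging not stated. Per the file headers, each Sox2 position carries a score, a false discovery rate (q-value) and an enrichment ratio over input. All deposited positions have a q-value below 0.01, and no source used here names the caller. Depth is unknown.

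Rows of NR_ transcripts were taken without Pvt1, with 1 value per distinct start site (307 transcripts, 298 symbols, 1084 of 22594 rows). Log2(CAF/RN) was computed without a pseudocount, as no value was 0. A log2 ratio of 0.32 either way served as a descriptive threshold. NM_ promoters were weighted to the members' distribution over 10 level deciles, in place of matching. RefSeq tables (GRCm38.p6) served for names, classes and sequences only: 273 members matched by transcript, 24 by symbol, 9 by synonym and 2 not at all. Named were the Snor and Mir members (the results of a few are not reported here), the listed lncRNAs, the 5 highest and lowest ratios and levels, the 5 closest NM_ pairs, and members with Sox2 positions within 2 kb in all 3 lists. A few neighbours and further members were named after their values were seen. The weighting and the nearest-position search were tested on simulated data. Python 3.11.15, pandas 2.3.3, numpy 2.4.6 and scipy 1.17.1 were used. The members and lists were chosen with earlier results of these data known. The pyrimidine run and the spacing of hairpins were examined after the data had been seen.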

Additional observations from a re-analysis of the deposited data

How the results depend on the processing

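No paired analysis was possible because each condition has 1 Sono-seq value per region and each hairpin 1 Sox2 list. No library could be left out either. The medians of the log2 ratio over members and classes stayed within their order-statistic 95% interval under a pseudocount of 0.01 or 0.05, centring on the median of all regions, a level floor, 1 value per 1 kb locus, and without members within 1 kb of an NM_ start. With 1 value per 1 kb locus the Mir median was -0.03 over 23 loci and the Snor median -0.06 over 39. With the level floor the Mir median was -0.03. The interval treats start sites of 1 locus as separate, so a median within it need not be stable. With alternatives added after seeing the data, the Mir median was -0.03 without chromosome X and the Snor median -0.02 without the Snord49 start sites. The median for all members lay near 0 and its sign changed with the setting. For enhancers at or above the median level the median was 0.051. With log2 thresholds of 0.20 and 0.58 in place of 0.32, 55 and 1 members were higher and 69 and 5 lower. Sox2 positions within 2 kb lay near 30, 29 and 38 members and within 50 kb near 200, 199 and 218 (Renilla, Chaf1a.166, Chaf1a.2122). An enrichment lower bound of at least 2 left 54 and 60 in the Chaf1a.166 and Chaf1a.2122 lists, and 58 in the Renilla list. With all lists cut to the 15888 best positions the counts were 73, 84 and 74, so the excess of the Chaf1a.2122 list over the Chaf1a.166 list was not kept. The median difference to the nearest NM_ start was 0.025 within 1 kb. The absence of replicate values limits every ratio given here.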
